A study of Mus musculus with 15 samples.

Results

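The transcripts of 10 genes that build coenzyme Q (Coq2, Coq3, Coq4, Coq5, Coq6, Coq7, Coq8a, Coq9, Pdss1 and Pdss2) were followed across cell lines derived from NMuMG, an epithelial line from normal mouse mammary gland. They were 10 of the 13893 genes measured in dataset 1 and 10 of the 15023 measured in dataset 2, and were taken by name. In dataset 2 the name Coq8a found no gene, since that table uses the older name Adck3, so 9 members were found by name and Coq8a by its identifier (ENSMUSG00000026489). The group was drawn around Coq3, which had the lowest p-value of the 12621 genes tested in FAM3C KO against shPCBP1. The genes were thus selected on the CPM values of FAM3C KO and shPCBP1, which are given as a description.

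Total RNA was depleted of ribosomal RNA and sequenced (RNA-Seq). All 11 libraries of dataset 1 came from NMuMG cells with a stable shRNA knockdown of PCBP1, so the controls carried the knockdown as well. These controls (shPCBP1) were the unaltered line and CT clones 1 to 3, which had received Cas9 without a guide RNA for any gene. Against them stood 3 FAM3C KO clones and 3 LIFR KO clones, each grown from a single colony, and 1 line with both genes targeted (double KO). There was 1 RNA sample per line, and the label of the double KO does not call it a clone. Dataset 2 held 2 samples of NMuMG cells, given as wild type without treatment in the labels (the study describes its controls as cells with a scrambled shRNA), and 2 of NMuMG shPCBP1 cells. Nothing states that the samples of dataset 2 came from separate cultures, so p-values measure only the spread between these samples.

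Coenzyme Q is a lipid of the inner mitochondrial membrane that carries electrons from several dehydrogenases to complex III of the respiratory chain, and it also acts as an antioxidant in membranes. It has a ring made from tyrosine and a long isoprenoid tail made from products of the mevalonate pathway. Pdss1 and Pdss2 are the subunits of the enzyme that makes the tail, and Coq2 joins tail and ring. The ring is then modified by Coq6 and Coq7, which add hydroxyl groups, and by the methyltransferases Coq3 and Coq5. Coq4 acts together with these enzymes, Coq9 binds Coq7, and Coq8a is an atypical kinase that maintains the complex of these proteins.

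Coq3 (ENSMUSG00000028247) lies on chromosome 4 of GRCm38 from 21879673 to 21912162 on the plus strand (GENCODE M21), and no other annotated gene overlaps it. The same holds for Coq7, while the other 8 genes overlap annotated genes, with which their reads may be shared. RefSeq (GRCm38.p6) gives it 2 start sites. Each of the windows of 300 bases used here ran from 250 bases before a start to 50 after it, and 11 such windows were at hand for 9 of the 10 genes, Coq5 having none. Among them 3 motifs were sought on both strands: TTCNNNGAA (STAT3), the site of NRF1 and CCGGAAG (ETS factors). The STAT3 letters were in none of the 11 windows, and in 8.30% of the 32851 promoters of the same length. The NRF1 letters were in 1 of the windows of Coq3, in no window of the other genes, and in 4.60% of all promoters. The other Coq3 window (chr4:21879396-21879695) held none of the motifs. The ETS letters were in those of 3 genes (Pdss1, Pdss2 and Coq6), and in 8.86% of all promoters. The windows of Coq3 and Pdss1 are shown because they hold these matches for the member that differed most and for the one with more than 1 match. That of Coq3 spans chr4:21879603-21879902 (plus strand) and that of Pdss1 chr2:22895272-22895571 (plus strand). Capitals mark the NRF1 match of Coq3, which begins at the start site itself, and the ETS matches of Pdss1, which begin 25 and 39 bases after its start and lie on the minus strand (read here as CTTCCGG). A match says only that the letters are there.
Coq3: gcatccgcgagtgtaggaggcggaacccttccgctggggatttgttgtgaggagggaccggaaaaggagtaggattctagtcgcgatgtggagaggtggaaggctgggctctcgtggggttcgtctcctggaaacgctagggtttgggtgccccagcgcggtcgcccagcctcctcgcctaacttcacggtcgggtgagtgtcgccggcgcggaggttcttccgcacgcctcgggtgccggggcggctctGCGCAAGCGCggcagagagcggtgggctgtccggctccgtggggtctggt
Pdss1: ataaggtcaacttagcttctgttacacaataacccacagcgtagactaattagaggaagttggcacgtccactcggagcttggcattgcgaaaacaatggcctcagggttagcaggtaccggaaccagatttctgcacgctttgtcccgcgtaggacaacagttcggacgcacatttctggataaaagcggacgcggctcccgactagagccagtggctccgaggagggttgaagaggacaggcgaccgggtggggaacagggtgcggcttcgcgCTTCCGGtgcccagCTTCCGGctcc

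Values are CPM, read counts that the authors scaled to the size of each library. From the step between low values, the libraries of dataset 1 held about 16031859 to 46901675 reads and those of dataset 2 about 53032111 to 56496537. LIFR KO clones 2 and 3 and the double KO stood apart from the other 8 libraries of dataset 1. Across 12581 genes, Spearman's correlation between the GC content of a gene and its log2 difference from the shPCBP1 mean was -0.76 to -0.70 in these 3 libraries and -0.29 to 0.24 in the others, and mitochondrial mRNA took 7.16 to 8.58% of their CPM against 3.14 to 4.06%. Fam3c stood at 26.4 to 42.9 CPM in FAM3C KO against 47.0 to 59.4 CPM in shPCBP1. Lifr stood at 14.6 to 34.9 CPM in LIFR KO against 25.8 to 40.2 CPM in shPCBP1, so its transcript did not mark clones 1 and 2 as LIFR KO. The guide pairs were chosen to cut a short piece out of the coding sequence, and the reads elsewhere in the transcript do not check that cut. Pcbp1 was at 287 and 312 CPM in NMuMG and at 14.1 and 14.2 CPM in shPCBP1 of dataset 2. Of the epithelial markers, Cdh1 (148.6 to 362 CPM), Krt8 (218 to 1302 CPM) and Krt18 (402 to 1202 CPM) were high in all 15 libraries, while the basal keratins Krt5 and Krt14, analysed here in dataset 2 alone, did not exceed 0.159 CPM. Epcam was in neither dataset. The mesenchymal markers Fn1, Cdh2 and Vim were higher in shPCBP1 than in NMuMG of dataset 2 (log2 differences 3.45, 1.42 and 1.19). Pdgfra, Pdgfrb and Col1a1 were not tested there. In that comparison Cdh1 differed by -0.65, Krt8 by -0.07 and Krt18 by 0.08. In LIFR KO against shPCBP1, Krt8 differed by -0.96, Krt18 by -0.72 and Cdh1 by -0.04, and of these Krt18 alone passed in limma. Vim and Fn1 differed by -0.40 each there, Cdh2 by 0.33 and Col1a1 by 0.03, and none of these passed. In FAM3C KO against shPCBP1, Col1a1 differed by 0.78, Cdh2 by 0.55, Fn1 by 0.51 and Vim by 0.03. Krt18 differed by 0.14, Krt8 by -0.04 and Cdh1 by 0.00 in that comparison, and no marker passed in it. The endothelial genes Pecam1 and Cdh5 did not exceed 1.76 CPM. Of the immune genes, Ptprc, analysed in dataset 2 alone, did not exceed 0.0355 CPM, and Cd68 ranged from 4.29 to 10.8 CPM in dataset 1 and from 1.06 to 1.66 CPM in dataset 2.

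Per kilobase of the longest annotated transcript, the 10 genes differed widely in level in the 4 shPCBP1 lines of dataset 1. Coq9 had 15.1 ± 1.22 CPM per kb (SD, n = 4 here and below for this group) and Coq5 had 14.7 ± 1.62, and the ranges of these genes overlapped. Pdss1 followed with 12.2 ± 0.413, Coq2 with 10.2 ± 0.351 and Pdss2 with 8.0 ± 0.848 CPM per kb. Coq6 (5.40 ± 0.530), Coq7 (4.96 ± 0.41), Coq3 (3.85 ± 0.946) and Coq4 (2.77 ± 0.213) came next, each overlapping with its neighbour in this order. Coq8a was lowest at 0.377 ± 0.0284 CPM per kb, below Coq4 in every line. The steps from Pdss1 to Coq2, from Coq2 to Pdss2 and from Pdss2 to Coq6 also separated without overlap.

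The first comparison asked what the loss of FAM3C changed in shPCBP1 cells. Among the controls, Coq3 measured 10.1 CPM in the unaltered line, 7.23 CPM in CT clone 1, 10.1 CPM in CT clone 2 and 13.4 CPM in CT clone 3. The FAM3C KO clones, in order, measured 1.51, 1.52 and 1.15 CPM. Every FAM3C KO clone was below every shPCBP1 line, and the FAM3C KO mean was 13.7% of the shPCBP1 mean. The FAM3C KO values rested on 30 to 38 times the smallest step of their library. On the log2(CPM + 0.1) scale, on which changes at low CPM come out too small, the difference was -2.76 (standard error 0.27, 95% interval -3.37 to -2.15). As bulk RNA was measured, fewer cells with the transcript and less of it per cell cannot be told apart.

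**Figure D1:**
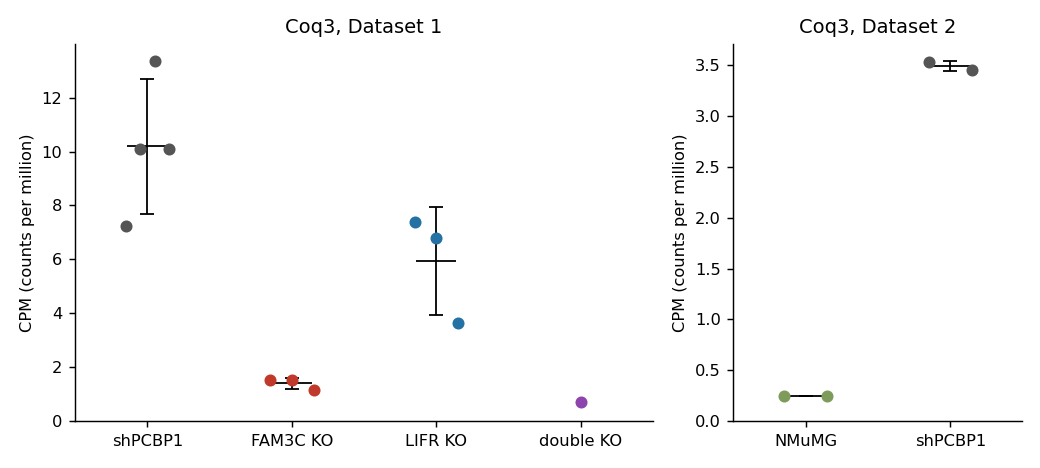
Coq3 in CPM (vertical axes, each from 0) for every library of dataset 1 (left) and dataset 2 (right). Points are single libraries, and bars give the mean ± SD of groups with more than 1 library. The FAM3C KO clones sit between 1.15 and 1.52 CPM, below all shPCBP1 lines, and the NMuMG samples sit at 0.248 and 0.245 CPM. The panels were normalized separately, so their levels are not compared.

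The other 9 genes differed far less between FAM3C KO and shPCBP1, with log2 differences between -0.41 and 0.37. Coq3 was the 1 of 10 with an adjusted p under 0.07 (limma, Benjamini-Hochberg over all genes tested), where 0.309% of all genes passed, and as the gene was chosen by this comparison nothing is read from that count. The tail enzymes were at 20.5 to 24.3 CPM (Pdss1) and 34 to 39.8 CPM (Pdss2) in FAM3C KO, against 23.0 to 24.9 CPM and 30.6 to 37.8 CPM in shPCBP1. Both pairs of ranges overlapped. Coq2 was at 22.6, 21.2 and 25.6 CPM in FAM3C KO clones 1 to 3 and at 17.1 to 18.6 CPM in shPCBP1, the one member with all clones above all lines (log2 difference 0.37). Coq9 was at 21.5, 20.2 and 19.2 CPM in the clones against 24.8 to 29.99 CPM in the lines (-0.41), and Coq6 at 12.9, 12 and 12.6 CPM against 13.8 to 17 CPM (-0.29), so both lay below all lines, as Coq3 did. Groups that do not overlap were found for 22.7% of all genes. With the 2 groups fitted alone, so that the LIFR KO clones gave nothing to the spread, Coq2 and Coq9 also passed (adjusted p = 0.0399 and 0.0297 from limma). In that fit 1048 of all genes passed. The median log2 difference was 0.02 over the 10 genes, 5 of them below 0, and -0.01 over all 12621 genes.

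**Figure D2:**
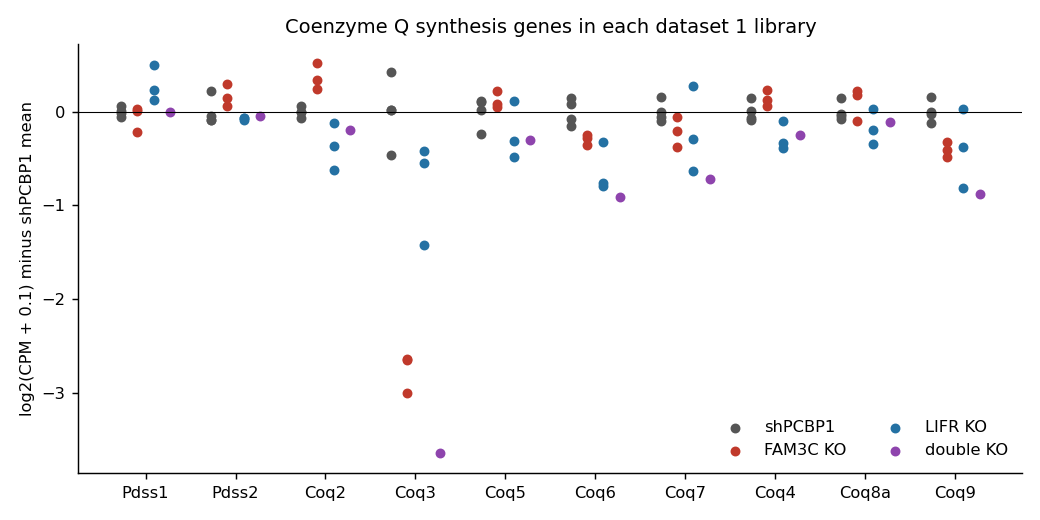
Log2(CPM + 0.1) of each gene minus its mean in the 4 shPCBP1 lines (vertical axis) for every library of dataset 1, with the genes ordered by role along the horizontal axis. Each point is 1 library. Only Coq3 leaves the band between -1 and 1, in the FAM3C KO clones, in LIFR KO clone 3 and in the double KO.

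The LIFR KO clones were compared with the same 4 shPCBP1 lines, so that both comparisons share their controls. Coq3 measured 7.40 CPM in LIFR KO clone 1, 6.78 CPM in clone 2 and 3.65 CPM in clone 3. Clones 2 and 3 were below all shPCBP1 lines, and clone 1 was just above CT clone 1. The log2 difference was -0.80 (standard error 0.27, 95% interval -1.41 to -0.19), given as a description because the shPCBP1 values of Coq3 took part in its choice. Without LIFR KO replicate 1, whose library did not share the shift with GC content, it was -0.99, and without clones 2 and 3 it was -0.42. Without clone 3 alone it was -0.49.

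Coq6, which adds a hydroxyl group to the ring, was the 1 of 10 genes that passed in LIFR KO, where 6.47% of all genes did. It was at 12.2, 8.82 and 9.01 CPM in clones 1 to 3 against 13.8, 14.5, 16.2 and 17 CPM in the shPCBP1 lines, so all clones were below all lines. It fell by 0.63 on the log2 scale (standard error 0.14, adjusted p = 0.0488 from limma). The difference was -0.32 both after a correction for GC content (adjusted p = 0.134 from limma) and without clones 2 and 3 (adjusted p = 0.394 from limma), and the call was lost. It was also lost without any 1 of the shPCBP1 lines, without FAM3C KO clone 1 or 3 (which share the estimate of the spread) and without LIFR KO clone 2 or 3, with values of -0.68 to -0.54. Fam161b overlaps Coq6 on the other strand, and the strand setting of the counting is not given in the sources used here.

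Of the remaining members, Coq2 (11.5 to 16.4 CPM in LIFR KO against 17.1 to 18.6 in shPCBP1) and Coq4 (6.39 to 7.83 against 7.86 to 9.30) were also below all lines, and Pdss1 (26.1 to 33.6 against 23.0 to 24.9) was above all lines. None of these passed in limma (adjusted p = 0.0958, 0.156 and 0.115). With Coq6 they were the 4 of 10 members that reached an exact permutation p of 0.0286, unadjusted and the smallest that 3 clones against 4 lines allow, and 17.2% of all genes had groups without overlap. Coq5, Coq7, Coq8a, Coq9 and Pdss2 overlapped between the groups, with log2 differences of -0.39 to -0.07. The median log2 difference was -0.25 over the 10 genes, 9 of them below 0, and -0.16 over all genes tested. Median-ratio rescaling of the libraries moved the latter by 0.16 to -0.00, took Coq6 to -0.46 (adjusted p = 0.0693 from limma) and Pdss2 to 0.09, and changed no other sign. Of all calls in this comparison 14.1% were higher before and 39.7% after that rescaling.

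In LIFR KO clones 2 and 3 several members lay near the median of all genes with a like GC content. Pdss1, with the lowest GC content of the 10 (39.2%), was 0.50 and 0.23 above the shPCBP1 mean on the log2 scale in clones 2 and 3, and the median of the 561 genes within 1 percentage point of its GC content was 0.59 in each. Coq2 (54.3%) differed by -0.63 and -0.36 from that mean in these clones, against medians of -0.61 and -0.58 for 1262 genes of like GC content, and Coq4 (51.7%) differed by -0.39 and -0.34 against medians of -0.40 and -0.38. Others did not. Coq6 (52.6%) differed by -0.79 and -0.76 against medians of -0.47 and -0.45, and by -0.32 against 0.00 in clone 1, and Coq7 (49.7%) differed by -0.64 against -0.21 in clone 3. Coq3 lay on the other side of 0 from genes like it. Its GC content is 44.1%, where the medians of 1207 genes were 0.21 and 0.24, yet its own differences were -0.55 and -1.43. In clone 1, where the median of these genes was -0.03, Coq3 differed by -0.42. After the correction for GC content 0 of the 10 members passed in LIFR KO. Of all genes, 7 passed as higher and 18 as lower in that fit, so nothing is read from the count of members. Under this correction Coq2, Coq5, Coq8a, Coq9 and Pdss1 changed the sign of their difference. The part of the GC shift in these results was not tested further, and clones 2 and 3 carry both this shift and the knockout, which cannot be told apart there.

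**Figure D3:**
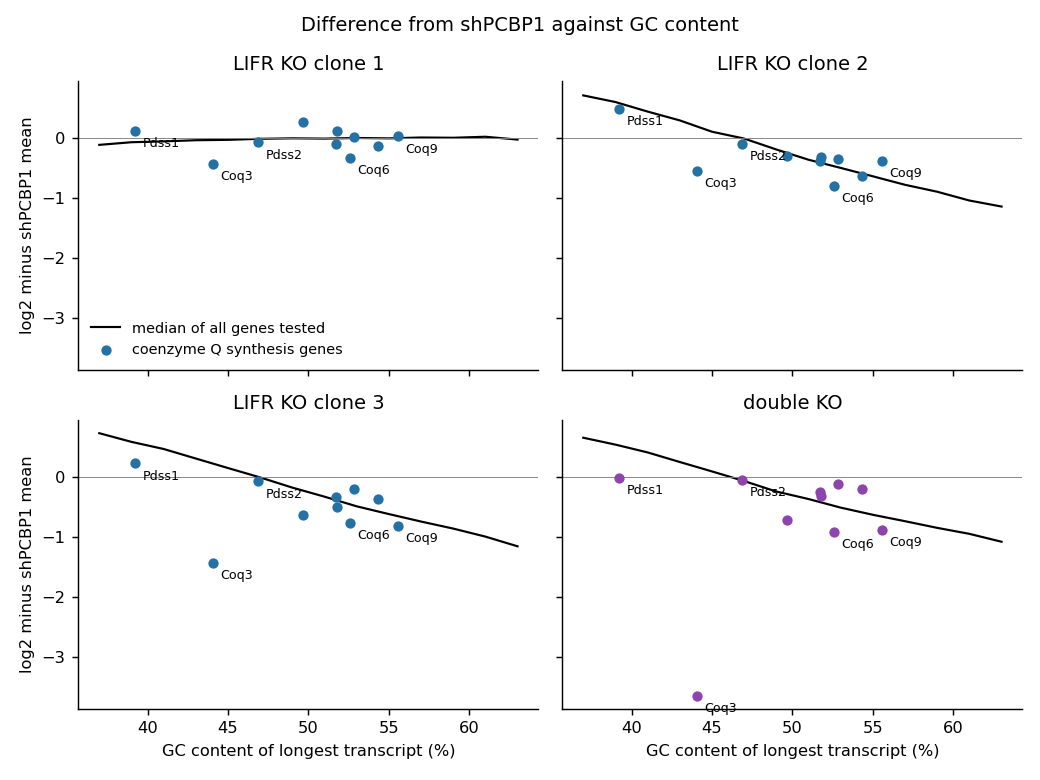
Log2 difference from the shPCBP1 mean (vertical axis) against the GC content of the longest transcript in percent (horizontal axis) for the 10 genes (points) in 4 libraries, with the median of all genes tested in bins of 2 percentage points that hold at least 100 genes (line). The line is flat in LIFR KO clone 1 and slopes down in LIFR KO clones 2 and 3 and the double KO, and Coq3 lies below it in all 4 panels.

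Set directly against each other, the FAM3C KO and LIFR KO clones differed in Coq2, beside Coq3. The calls were thus 2 of the 10 genes, where 8.28% of all genes passed, but the FAM3C KO values of Coq3 are those that chose it, so its difference is a description and nothing is read from that count. It was lower in every FAM3C KO clone (1.15 to 1.52 CPM) than in every LIFR KO clone (3.65 to 7.40 CPM), with a log2 difference of -1.96 (standard error 0.29), and of -2.34 without LIFR KO clones 2 and 3. Coq2 was higher in every FAM3C KO clone (21.2 to 25.6 CPM) than in every LIFR KO clone (11.5 to 16.4 CPM), by 0.74 on the log2 scale (standard error 0.14, adjusted p = 0.0366 from limma). With LIFR KO clone 1 alone it was 0.49 (adjusted p = 0.0566 from limma), the lone clone being assumed to vary like the other groups, and after the GC correction 0.40 (adjusted p = 0.103 from limma). The groups did not overlap for 5 of the 10 genes and 22.8% of all genes, and an exact permutation test of 3 clones against 3 cannot go below 0.1. The share of all calls that were higher was 82.5%, and 60.4% after median-ratio rescaling, which moved the median of all genes by -0.14. Both calls were lost without FAM3C KO clone 1 or clone 3, and that of Coq2 also without FAM3C KO clone 2 or LIFR KO clone 2.

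The double KO, a single line without replicate, had the lowest Coq3 of dataset 1. Its value of 0.703 CPM, about 15 times the smallest step of the library, was 6.89% of the shPCBP1 mean, against 13.7% in FAM3C KO and 58.3% in LIFR KO. Coq6 (8.10 CPM), Coq7 (9.23 CPM) and Coq9 (14.6 CPM) were also at their lowest of the 11 libraries in this line. In all, 8 of the 10 genes were below the range of the shPCBP1 lines and 2 (Pdss1 and Pdss2) within it, while the median difference of all genes tested was -0.24 on the log2 scale in this library. The shares of all genes below that range, or at their lowest in this library, were not counted. Nothing is therefore read from these counts of members. Genes with the GC content of Coq3 had a median of 0.18 there, and Coq3 differed by -3.65. Those with the GC content of Coq6 had a median of -0.47, and Coq6 differed by -0.91. The clone was left out of the fit, and its values carry no test.

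Dataset 2 asked what the knockdown of PCBP1 changed in NMuMG cells, and its values are not part of the comparison that singled out Coq3. Coq3 was at 0.248 and 0.245 CPM in NMuMG replicates 1 and 2 and at 3.53 and 3.46 CPM in shPCBP1. The replicates lay close together and the groups far apart, with a ratio of the means of 14.2. Coq3 rose by 3.37 on the log2 scale (standard error 0.15, adjusted p = 3.05e-09 from limma, and 0.000161 when no filter on low values was set). The NMuMG values rested on 14 and 13 times the smallest step, and with a pseudocount of 1 CPM the log2 difference was 1.85. Per kilobase, Coq3 was the lowest of the 10 genes in NMuMG (0.0930 CPM per kb) and stood above Coq8a alone in shPCBP1 (1.32 CPM per kb). Its mean in NMuMG was under the filter of 0.5 CPM, which it passed through the shPCBP1 samples.

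Across the 10 genes 6 passed in dataset 2, where 80.1% of all 11384 genes tested did, so the share of members was not above that of genes at large. Of the 8 whose mean reached 0.5 CPM in both groups 4 passed, and Coq3 and Coq8a entered the test through the group where they were higher. Of the tail enzymes, Pdss1 rose from 3.8 and 4.04 CPM to 5.51 and 5.81 CPM (log2 difference 0.52, standard error 0.09, adjusted p = 0.000353 from limma). Pdss2 rose from 9.97 and 8.92 CPM to 12.5 and 11.9 CPM (0.36, standard error 0.07, adjusted p = 0.000697 from limma). Both subunits of the enzyme thus stood higher in both shPCBP1 samples than in both NMuMG samples. Coq2 moved the other way and by little, from 20.5 and 19.9 CPM to 18.9 and 18.6 CPM (-0.11, standard error 0.04, adjusted p = 0.0506 from limma). This call was lost at a threshold of 0.05 and without NMuMG replicate 1 or either shPCBP1 replicate.

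Among the genes that modify the ring, Coq7, a hydroxylase of a late step, rose from 5.77 and 5.22 CPM to 9.41 and 8.39 CPM (log2 difference 0.68, standard error 0.09, adjusted p = 2.93e-05 from limma). Coq6 was at 3.95 and 3.96 CPM in NMuMG and 4.07 and 4.12 CPM in shPCBP1, and the methyltransferase Coq5 at 17.6 and 18.3 against 19.3 and 17.9 CPM. Neither passed, with 95% intervals of -0.16 to 0.26 for Coq6 and -0.07 to 0.17 for Coq5.

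Of the remaining genes, Coq8a fell by 1.53 on the log2 scale (standard error 0.21, adjusted p = 5.17e-05 from limma, and 0.00664 with no filter), from 0.982 and 0.685 CPM to 0.187 and 0.254 CPM. Its mean over the samples was 0.527 CPM, just above the filter, which it passed through NMuMG and would not have passed without either NMuMG sample. Cdc42bpa overlaps Coq8a on the other strand. Coq4 (6.87 and 6.59 CPM in NMuMG, 6.84 and 6.51 CPM in shPCBP1) and Coq9 (15.2 and 15.4 CPM, 14.7 and 14.5 CPM) did not pass, with 95% intervals of -0.19 to 0.16 and -0.18 to 0.05. The median log2 difference over the 10 genes was 0.05, and 0.02 over all genes tested. An exact permutation test of 2 samples against 2 cannot go below 0.333, and groups without overlap were found for 8 of the 10 genes and 89.0% of all genes.

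**Figure D4:**
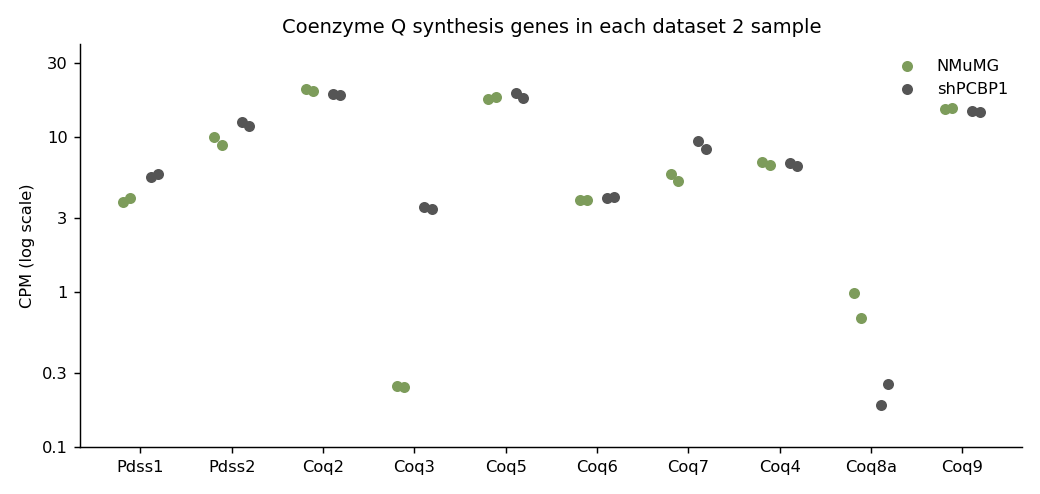
CPM on a log scale (vertical axis) of the 10 genes (horizontal axis, by role) in the 2 NMuMG and the 2 shPCBP1 samples of dataset 2. Each point is 1 sample. Coq3 is at 0.248 and 0.245 CPM in NMuMG and at 3.53 and 3.46 CPM in shPCBP1, Coq8a moves the other way, and the points of Coq4 and Coq5 overlap.

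The genes that supply coenzyme Q synthesis or use its product were read from lists. In FAM3C KO, 0 of 9 genes passed in each of the lists for isoprenoid supply, handling of coenzyme Q, enzymes that reduce it and complex III, beside 0.309% of all genes. This was the fit that shared its spread with LIFR KO, and the lists were not counted with the 2 groups fitted alone. At an unadjusted p under 0.05 the list of reducing enzymes held 3 genes and each of the others 0, against 10.2% of all genes. In LIFR KO, Sqor, which passes electrons from sulfide to coenzyme Q, fell by 1.35 on the log2 scale (standard error 0.36, adjusted p = 0.0653 from limma), and Cyc1, the cytochrome c1 of complex III, fell by 0.92 (standard error 0.18, adjusted p = 0.038 from limma). Each was the 1 of 9 genes called in its list, and the remaining lists held 0 of 9, beside 6.47% of all genes. Cyc1 measured 124, 65.5 and 85.9 CPM in the LIFR KO clones, in order, against 150 to 178 CPM in shPCBP1, and Sqor measured 3.76, 4.12 and 6.43 CPM against 7.10 to 17.2 CPM, so that both lay below all lines. Without clones 2 and 3 the differences were -0.44 for Cyc1 and -1.65 for Sqor, and after the GC correction -0.23 and -1.26, and neither passed (adjusted p = 0.0902, 0.214, 0.312 and 0.156 from limma). These alternatives for Cyc1 and Sqor were added after their values were seen. In dataset 2, 8 of 9 genes of isoprenoid supply fell and 1 (Ggps1) rose. Hmgcs1, an early enzyme of the mevalonate pathway, was at 195 CPM in NMuMG and 81.7 CPM in shPCBP1 (group means, log2 difference -1.25, adjusted p = 5.33e-12 from limma). Pmvk (-1.14), Fdps (-1.08) and Mvk (-0.81), later enzymes of that pathway, passed in the same direction.

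Of complex III, which takes electrons from coenzyme Q, 7 of 8 genes tested rose in dataset 2 and 0 fell. Cyc1 rose by 0.67, Uqcrq by 0.36, Uqcrb by 0.36 and Uqcr10 by 0.35 on the log2 scale. Of the 9 genes tested for the handling of coenzyme Q, 5 fell and 1 rose, among them Coq8b, the close relative of Coq8a, which fell from 16.2 to 7.0 CPM (group means, log2 difference -1.19, adjusted p = 3.54e-08 from limma). Fdxr (-0.77), Hpdl (-0.76) and Fdx2 (-0.51), which take part in making or modifying the ring, also fell. Of the 8 genes tested whose enzymes reduce coenzyme Q, 3 rose (Sdhd, Sdhb and Sdha) and 2 fell (Sqor and Etfdh). These counts stand beside 42.1% of all genes higher and 38.0% lower in dataset 2.

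Of the 6 measured genes that start within 2 Mb of the start of Coq3, 0 passed in limma in FAM3C KO, LIFR KO or the direct comparison. Of all genes 0.309%, 6.47% and 8.28% passed in these comparisons, so nothing is read from that count. At an unadjusted p under 0.05 there were 0, 3 and 1, against 10.2%, 35.7% and 29.3% of all genes. Pnisr, the nearest, ends 3.20 kb before Coq3 on the same strand. It was at 81.1 to 103 CPM in shPCBP1 and at 86.1 to 93.8 CPM in FAM3C KO (log2 difference 0.00, standard error 0.12). The nearest measured gene on the other side, Fbxl4, starts 478 kb after the start of Coq3 and differed by 0.29 (standard error 0.16, adjusted p = 0.59 from limma) in FAM3C KO. In dataset 2 all 6 passed as higher, where 42.1% of all genes did and 80.1% passed in either direction. They rose by 0.09 (Pnisr), 0.41 (Fbxl4), 0.42 (Ccnc), 0.46 (Tstd3), 0.82 (Usp45) and 0.89 (Ggh), against 3.37 for Coq3.

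**Figure D5:**
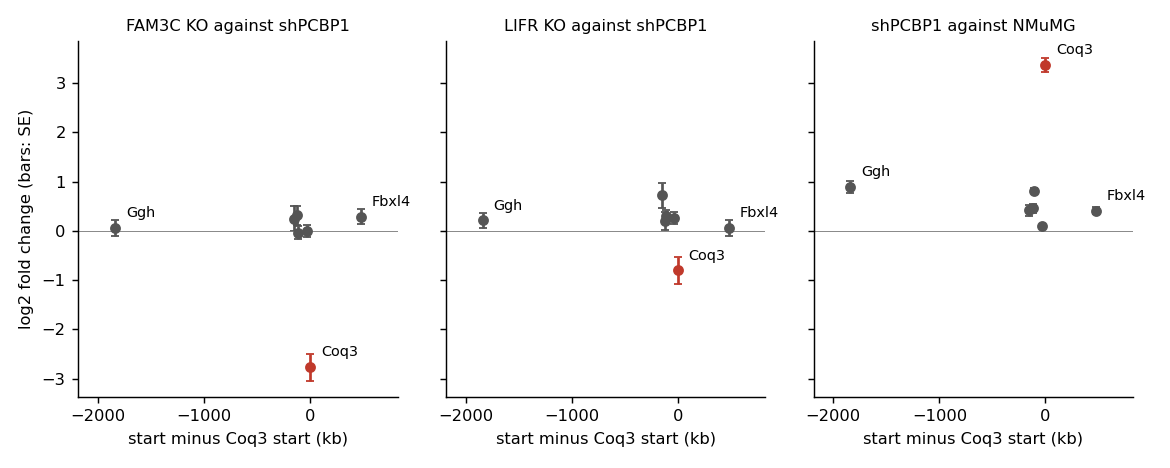
Log2 fold change (vertical axis) of Coq3 and the 6 measured genes within 2 Mb against the distance of their starts from the start of Coq3 in kb (horizontal axis), in 3 comparisons. Points are fitted values and bars their standard errors. Coq3 stands at -2.76, -0.80 and 3.37, and the other genes lie between -0.03 and 0.89.

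Across the 11 libraries of dataset 1, the 5 genes whose log2 values followed those of Coq3 most closely by Pearson's r were Dnajc9 (0.99), Kif14 (0.96), Il17rd (0.94), Irx3 (0.93) and Pou4f1 (0.93). They share libraries with Coq3, and the separation of the FAM3C KO clones and the double KO from the shPCBP1 lines weighs on each value. Dnajc9 ranged from 46.7 to 48.9 CPM in FAM3C KO against 55.9 to 60.0 CPM in shPCBP1, a much smaller change than that of Coq3. Irx3 was at 2.37 to 5.05 CPM in shPCBP1 and at no more than 0.0443 CPM, the smallest step of a library, in FAM3C KO. Among the members themselves Coq9 was closest to Coq3 (0.77, rank 271 of 12620 genes), then Coq7 (0.61) and Coq6 (0.54), and Coq2 was farthest (-0.38). The 11 libraries include LIFR KO clones 2 and 3 and the double KO, which carry the shift with GC content. The part of that shift in these correlations was not tested.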

How the data were processed

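RNA-Seq was analysed for 15 samples, 11 of dataset 1 and 4 of dataset 2. Per the labels and the study's methods, libraries were rRNA-depleted and directional, and the authors aligned trimmed reads to GRCm38 (mm10) with Bowtie2 in Partek Flow, quantified genes and tested them with DESeq2. The strand setting of the counting is not given in the sources used here. The deposited values are CPM made by the authors, with 0.0001 added to each value in dataset 2. In dataset 1 the lowest value of each library was 1 step, so that no read and 1 read cannot be told apart. The authors' mean CPM columns and a deposited ratio column (fold change) of dataset 2 were not used.

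Genes whose mean reached 0.5 CPM (12621 in dataset 1, 11384 in dataset 2) were fitted on log2(CPM + 0.1) with limma 3.58.1 (trend) in R 4.3.3, apart in each dataset, since these were normalized separately. The 3 groups of dataset 1 with replicates were fitted together and shared 1 estimate of the spread, and the double KO was left out. Tests were two-sided, with Benjamini-Hochberg adjustment over all genes tested and a threshold of 0.07, as in the study's methods. Low CPM values (under 50 steps) came in steps worth 1 read, and a share of 0.869 to 0.918 of them lay within 0.05 of a whole number of steps in a library, so depth was read from the step and no count test was run.

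The genes and lists were chosen with earlier results of these data known. All 10 genes were named, with at most 4 called genes a list by size of change, all neighbours within 2 Mb of Coq3, and the 5 genes most like Coq3 by Pearson's r. The GC content and length are those of the longest GENCODE M21 transcript. Alternatives were median-ratio rescaling, a pseudocount of 1, no filter, a threshold of 0.05, a replicate block, leaving out each sample, fitting 2 groups alone, a GC correction (loess, span 0.3) and leaving out LIFR KO clones 2 and 3. Plots were made in matplotlib 3.10.9 (Python 3.11.15).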

Additional observations from a re-analysis of the deposited data

Results flagged for a closer look

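Of 24 named genes examined in the 4 shPCBP1 lines of dataset 1, 2 had a line set apart from the other lines by Dixon's test, and chance sets about 5% of groups apart. Pdss2 reached 37.8 CPM in CT clone 3 (gap over range 0.88). Dnajc9, the gene most like Coq3, had its lowest value of 55.9 CPM in 1 line (0.878). FAM3C KO and LIFR KO, each read against the same lines, differed in Coq2 (log2 difference 0.74) by the limma test of the difference itself. The same difference was -1.96 for Coq3, which is a description, since the FAM3C KO values chose that gene.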

How the results depend on the processing

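Of the log2 differences of the 10 genes under the alternatives, 576 kept sign and side of the threshold, 31 lost and 13 gained a call, and 28 changed sign. Coq3 kept its sign under all of them. In FAM3C KO, in LIFR KO and between these knockouts that is no support for Coq3. Each of these comparisons uses values of FAM3C KO or of its control lines, and those values chose the gene. In dataset 2 counts stayed between 8115 and 10167 genes and 4 and 6 members. Coq8a gave no value there without either NMuMG sample. The low depth behind Coq3 in FAM3C KO and NMuMG and behind Coq8a limits these values.

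In FAM3C KO, 39 genes and 1 member were called. With the 2 groups alone these were 1048 and 3, after the GC correction 252 genes, and leaving out 1 library gave 3 (without shPCBP1 replicate 1) to 359 genes (without LIFR KO replicate 3) and 1 member. In LIFR KO, 816 genes and 1 member were called. Rescaling left 478 genes and a threshold of 0.05 left 359, while the 2 groups alone gave 35 and 0, the GC correction 25 and 0, and leaving out clones 2 and 3 gave 281 and 0. Leaving out 1 library gave 5 (without shPCBP1 replicate 2) to 7234 genes (without LIFR KO replicate 1) and 0 to 8 members. Between FAM3C KO and LIFR KO, 1045 genes and 2 members were called. A threshold of 0.05 left 587 genes, the 2 groups alone 0 and 0, and the GC correction 77 and 1. Leaving out 1 library gave 1 (without FAM3C KO replicate 3) to 6673 genes (without LIFR KO replicate 1) and 0 to 6 members. For dataset 2 these ranges were 8115 to 8955 and 4 to 5. The cause was not tested.

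Same-numbered samples of dataset 1 correlated at -0.18 to 0.15 in 9 pairs and others at -0.27 to 0.22, so a number alone was shared there. In dataset 2 the correlations were 0.051 and -0.051. With 2 samples in each group these must be equal and opposite, so they cannot show whether samples were paired. No pairing was assumed in either dataset. With a replicate block 15 genes were called in FAM3C KO, 10 and 0 members in LIFR KO, 0 and 0 between them, and 9235 and 6 in dataset 2. The block with the GC correction gave 4 and 0, 0 and 0, and 0 and 0 in dataset 1. In that fit LIFR KO had Coq8a at 0.14, Coq9 at 0.0133 and Pdss1 at -0.0474, and the direct comparison Coq7 at -0.12 and Coq8a at -0.0083.

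Other changes of sign in LIFR KO were Pdss2 at 0.088 after rescaling, Coq2 at 0.0162, Coq5 at 0.0336, Coq8a at 0.15, Coq9 at 0.055 and Pdss1 at -0.0851 after the GC correction, and Coq5 at 0.11, Coq7 at 0.27, Coq8a at 0.0301 and Coq9 at 0.0335 without clones 2 and 3. Between the knockouts Coq7 was at -0.13 after rescaling, -0.12 after the GC correction and -0.48 without clones 2 and 3, and Coq8a at -0.0083 after the GC correction. Leaving out 1 library took Coq7 there to between -0.20 and 0.26 (-0.0688, -0.0278 and -0.20 where it turned) and Coq9 to between -0.24 and 0.19 (0.0173 and 0.19). It took Pdss1 in FAM3C KO to between -0.11 and 0.0161, and in dataset 2 Coq4 to between -0.046 and 0.0237 (also 0.0186) and Coq5 to between -0.0027 and 0.10.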
